A study of Homo sapiens with 4 samples.

Results

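The genes described here handle creatine, and were measured in HT-29 cells, a line from a human colorectal adenocarcinoma. They are 7 of the 20322 genes in the deposited table, each represented by 1 transcript: the creatine kinases CKB, CKMT1A, CKMT1B and CKMT2, the creatine synthesis enzymes GATM and GAMT, and the creatine transporter SLC6A8. They were taken by gene symbol. The set was chosen by the measured drop of CKMT1A between the groups compared below, and the other genes by their function with the results in view. The differences of these 7 genes are therefore given as a description and carry no test.

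The study asked which mRNAs differ when IMP1, an RNA-binding protein encoded by IGF2BP1, is put back into cells that lack it. All 4 libraries come from HT-29 cells treated with CRISPR/Cas9 against IMP1, grown with puromycin, and labelled as derived from a mouse liver metastasis. The null group (2 libraries) carries the empty PiggyBac vector PB*-empty, and the IMP1-OE group (2 libraries) carries PB*-FLAG-IMP1-short UTR, which supplies FLAG-tagged IMP1. The labels do not say whether replicates are separate clones or cultures. All errors and p-values thus measure only the spread between these libraries, which may be technical.

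Creatine kinases move phosphate between ATP and creatine, and phosphocreatine serves as a mobile energy store. CKB is the cytosolic enzyme of brain and epithelia, while CKMT1A and CKMT1B encode the ubiquitous mitochondrial enzyme, which sits between the inner and outer mitochondrial membranes, and CKMT2 encodes its counterpart of striated muscle. GATM joins arginine and glycine to guanidinoacetate, GAMT methylates this to creatine, and SLC6A8 takes creatine up from outside the cell. Creatine kinase in the gut epithelium is known for supplying energy at the brush border and at cell junctions.

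CKMT1A and CKMT1B are near-identical copies on chromosome 15, and the fragments sequenced here were 18 to 50 nt long. The windows around their annotated starts in RefSeq (GRCh38.p14) matched at all 275 of the 275 bases that could be laid side by side. The following stretch of 30 bases, which ends just before an annotated start of CKMT1B, is shown with its counterpart upstream of CKMT1A. It need not be part of the mRNA, and the transcripts of the copies were not compared. How far the sequenced fragments can be told apart was therefore not tested. Both are on the plus strand, at chr15:43593804-43593833 for CKMT1B and chr15:43693636-43693665 for CKMT1A. No base is in capitals because 0 of the 30 differ.
CKMT1B: ctgaaatctgggcggccacatccccggggc
CKMT1A: ctgaaatctgggcggccacatccccggggc

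Totals ran from 9343429 to 10594813 estimated counts per library. A count of 0 allows up to 3 counts, which is 0.285 to 0.328 CPM (counts scaled to library size, as throughout by the TMM method named below), and this covers counting error only. IGF2BP1 had 37 and 16 counts in null against 71 and 112 in IMP1-OE, the order that the labels imply, with an edgeR adjusted p of 0.453 (unadjusted 0.0235). Of the listed markers of colorectal epithelium, 9 of 12 had over 3 counts in every library, but CDX2, an intestinal transcription factor, was at 47 counts in null replicate 1 and at 2, 0 and 3 in the others. Further intestinal markers were likewise high in null replicate 1: CEACAM5 at 606 counts against 35, 67 and 107, CDH17 at 126 against 4, 8 and 29, GPA33 at 60 against 4, 0 and 1, and CDX1 at 9 against 0 in the others. In all, 10 of the 12 markers had their highest scaled level in null replicate 1. For KRT8 the lead was small, at 12826 CPM against 12180 CPM in IMP1-OE replicate 2. The share of all genes highest in null replicate 1 was not taken, so nothing is read from the 10 of 12. Some fibroblast markers were also high there. LUM was at 74 counts against 5, 9 and 6, though DCN was at 0 there and at 24 in IMP1-OE replicate 1. Fibroblast markers summed to 13.1 CPM there against 2.52, 6.28 and 2.09 CPM in the others. Striated muscle markers summed to 5.38 CPM there and to 4.05 CPM in null replicate 2, where TNNC1 was higher. The leukocyte sum was highest in null replicate 1, at 2834 CPM, but LYZ alone gave 2798 CPM of this. CD14 was highest in null replicate 2. Hepatocyte markers summed to 441 and 229 CPM in null and to 689 and 732 CPM in IMP1-OE. Nearly all of this was SERPINA1, at 436 and 225 CPM in null and 685 and 725 CPM in IMP1-OE. ALB, APOA1 and APOA2 were at 0 throughout. TTR was highest in null replicate 1, at 18 counts against 1, 2 and 2, and TF in IMP1-OE replicate 2. Null replicate 2 stood apart in another way, with 16 interferon-stimulated genes summing to 8216 CPM against 945 to 1224 CPM in the other 3 libraries. In bulk RNA, fewer expressing cells and less RNA per cell cannot be told apart.

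The mitochondrial creatine kinase mRNA was lower in both IMP1-OE libraries. CKMT1A and CKMT1B together had 390 and 504 counts in null but 68 and 38 in IMP1-OE. Scaled by the trimmed mean of M values (TMM), this is 38.1 and 55.2 CPM against 6.47 and 3.61 CPM. The groups did not overlap, with IMP1-OE on the lower side, as for 21.9% of all tested genes, and the lower null library lay far above the higher IMP1-OE library. The mean was 46.7 ± 12.0 CPM in null and 5.04 ± 2.02 CPM in IMP1-OE (SD, n = 2 each), which is 9.25-fold lower. The log2 fold change fitted by edgeR was -3.21 (SE 0.38). Of the 12112 genes fitted, 0.925% had a fitted fold change at least as far from 0. The set was chosen by the drop of CKMT1A, so this share describes the choice and is no test. With each library left out in turn the value ran from -3.68 to -2.83, being -3.45 without null replicate 1, the library with the high intestinal markers, and -2.92 without null replicate 2, the library with the high interferon genes.

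**Figure D1:**
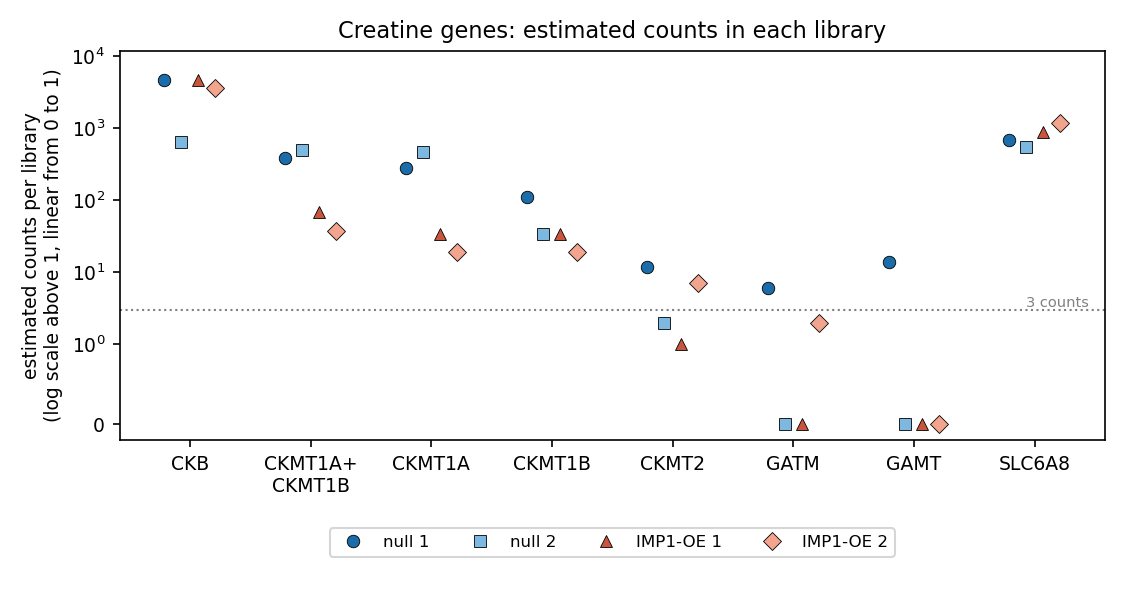
Estimated counts of each creatine gene in the 4 libraries (vertical axis logarithmic above 1 and linear from 0 to 1; 1 symbol per library; the dotted line is 3 counts). The summed CKMT1 copies lie at 390 and 504 in null and at 68 and 38 in IMP1-OE, CKB is low only in null 2 at 653, and GATM and GAMT lie near or at 0.

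Taken apart, the copies gave unlike pictures. CKMT1A was at 279 and 470 counts in null and at 34 and 19 in IMP1-OE, with a fitted log2 fold change of -3.96 (SE 0.47). CKMT1B was at 111 and 34 counts in null and at 34 and 19 in IMP1-OE, with -1.53 (SE 0.69). For CKMT1B the scaled levels of null replicate 2 and IMP1-OE replicate 1 were close, at 3.72 and 3.24 CPM, and without null replicate 1 its log2 fold change was -0.56. The size of the drop therefore depends on whether the copies are summed. CKMT1A on its own was 15.6-fold lower, CKMT1B 2.89-fold lower and their sum 9.25-fold lower.

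In both IMP1-OE libraries the copies are listed with the same whole number of counts, 34 each in replicate 1 and 19 each in replicate 2. In null replicate 1 CKMT1A held 71.5% of the summed counts (exact Clopper-Pearson 95% interval 66.8 to 76.0%), and in null replicate 2 it held 93.3% (90.7 to 95.3%). In IMP1-OE the share was 50% in each library, with intervals of 37.6 to 62.4% and 33.4 to 66.6%. These intervals cover counting error only, and estimated counts of near-identical copies are no independent draws. How the counts came to be divided between the copies was not tested, so the change of either copy alone is uncertain.

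**Figure D2:**
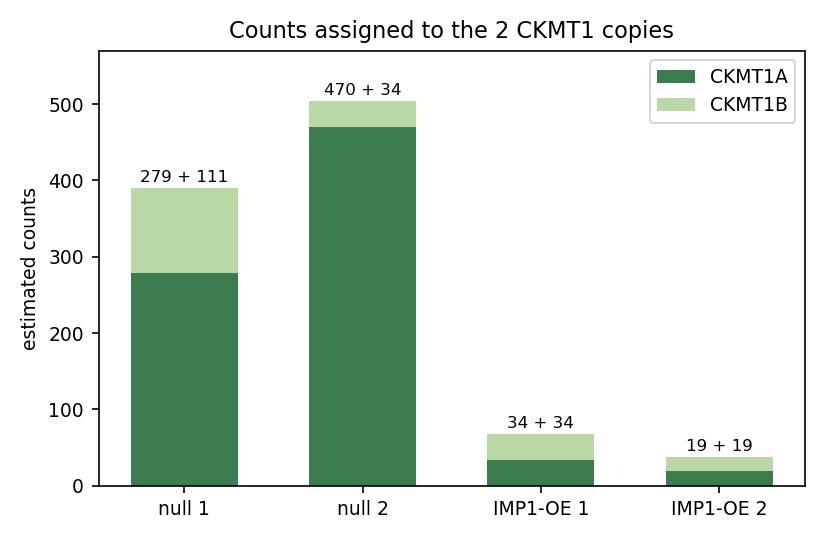
Estimated counts assigned to CKMT1A (dark) and CKMT1B (light), stacked for each library. The split is 279 and 111 in null 1 and 470 and 34 in null 2, and it is even, at 34 and 34 and at 19 and 19, in the IMP1-OE libraries.

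CKMT1A owes its place among the members to the authors' deposited table, where its log2 fold change is -3.82 with an adjusted p of 1.58e-11. Of the 12836 genes with an adjusted p in the authors' deposited table, 1.28% are called at the 0.05 threshold, 0.849% as lower and 0.428% as higher in IMP1-OE. CKMT1B stands at -0.06 in the authors' deposited table. DESeq2 on the same counts, with no shrinkage, gave -1.53 for CKMT1B and -3.96 for CKMT1A here. The unadjusted DESeq2 p of CKMT1B here equals that of the authors' deposited table, at 0.0570. The listed folds thus differ from those fitted here without a difference in the test. SLC6A8 is listed at 0.33 and CKB at 0.01 in the authors' deposited table, nearer to 0 than the values fitted from the counts below.

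CKB, the cytosolic kinase, did not separate the groups. Its counts were 4684 and 653 in null and 4637 and 3657 in IMP1-OE, or 458 and 71.5 CPM against 441 and 348 CPM. Null replicate 1 and IMP1-OE replicate 1 were nearly level, and only null replicate 2 was low. The mean was 265 ± 273 CPM in null and 394 ± 66.2 CPM in IMP1-OE (SD, n = 2 each), so the null spread exceeds the difference. The fitted log2 fold change was 0.57 (SE 0.76). It turned to -0.22 without null replicate 2 and rose to 2.46 without null replicate 1.

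The null replicates differed by 6.40-fold in CKB on the log2 CPM scale with a prior count of 2. A difference between them at least this far from 0 was found for 2.57% of the 12112 genes tested. Null replicate 2 lay 2.28 log2 units below the lowest of the other libraries for CKB, and 68 genes (0.561%) had a gap at least as wide. The summed CKMT1 copies behaved differently between the same libraries, being 1.44-fold higher in the second null replicate. The high interferon genes of null replicate 2 move with its low CKB level, and their part in it was not tested.

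**Figure D3:**
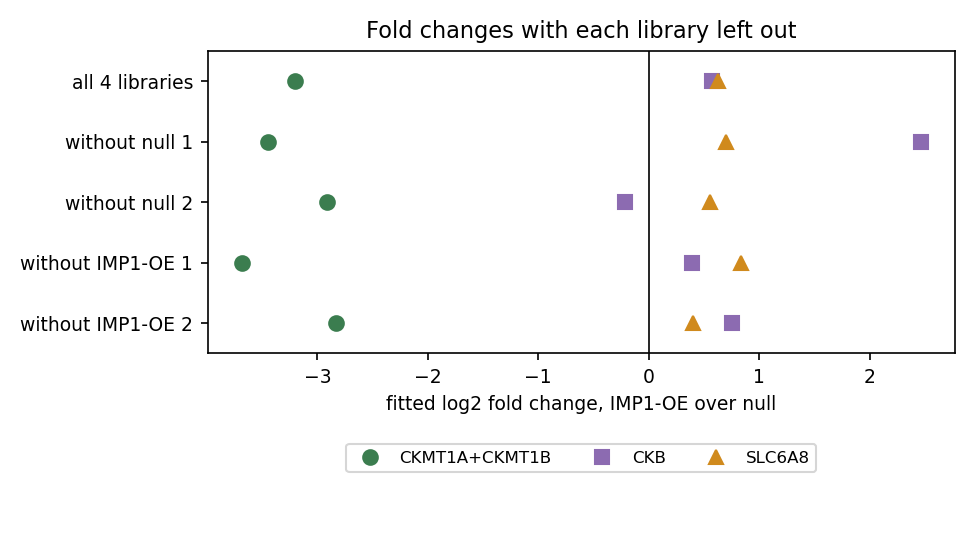
Fitted log2 fold change of IMP1-OE over null for the summed CKMT1 copies, CKB and SLC6A8 with all 4 libraries and with each library left out. The CKMT1 values stay between -3.68 and -2.83 and those of SLC6A8 between 0.40 and 0.84, while CKB runs from -0.22 to 2.46.

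Because CKB and the CKMT1 transcripts differ in length, their levels were compared as TPM, the deposited abundance that accounts for length. CKB made up most of the creatine kinase TPM in every library. The CKMT1 copies together held 6.93% in null replicate 1 and 40.7% in null replicate 2, against 1.30% and 0.922% in IMP1-OE. CKB was at 584 TPM in null replicate 1, 95.1 TPM in null replicate 2, 590 TPM in IMP1-OE replicate 1 and 457 TPM in IMP1-OE replicate 2. The high mitochondrial share of null replicate 2 therefore came with a low CKB level as well as with 65.9 TPM of the CKMT1 copies, against 43.7 TPM in null replicate 1 and 7.77 and 4.26 TPM in IMP1-OE.

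**Figure D4:**
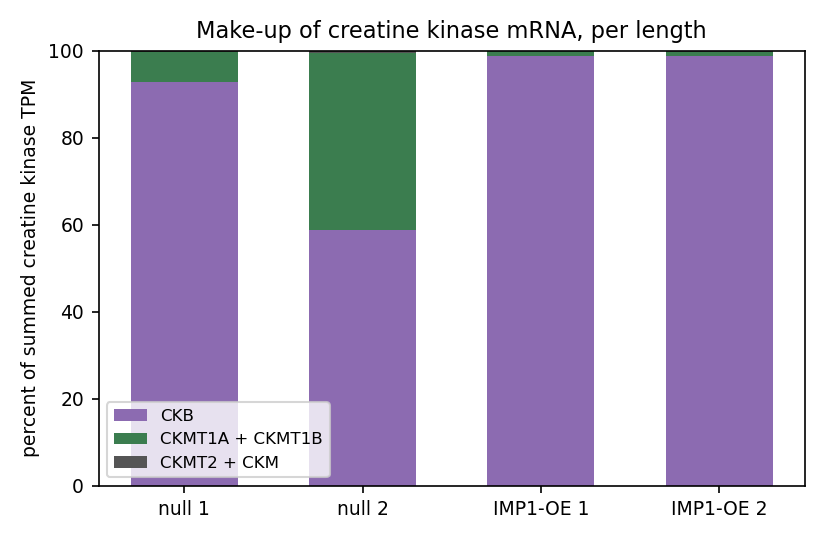
Percent of the summed TPM of CKB, the CKMT1 copies, CKMT2 and CKM in each library. The CKMT1 copies take 6.93% and 40.7% in null but 1.30% and 0.922% in IMP1-OE, and CKMT2 and CKM are barely visible.

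CKMT2, the mitochondrial kinase of striated muscle, was at 12 and 2 counts in null and at 1 and 7 in IMP1-OE. These values overlap and did not pass the low-count filter of edgeR, so no fold is given. CKM, the cytosolic kinase of muscle, was at 4 and 4 counts in null and at 0 and 1 in IMP1-OE. Of 12 striated muscle markers, 8 were at or under 3 counts in all libraries, and MYH2, MYH6 and TNNT3 were at 0 throughout.

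The enzymes of creatine synthesis were close to or under the floor. GATM was at 6 and 0 counts in null and at 0 and 2 in IMP1-OE, so it lay above 3 counts in null replicate 1 alone. GAMT was at 14 and 0 counts in null and at 0 in both IMP1-OE libraries. All counts of GAMT came from null replicate 1, the library that also held the highest counts of CKMT2, GATM and the intestinal markers CDX1, CDX2, CDH17, CEACAM5 and GPA33. The fibroblast markers LUM, COL1A1 and COL3A1 were also highest in that library, at 74, 35 and 24 counts. DCN went the other way, at 0 counts there and 24 in IMP1-OE replicate 1. The part of any of these markers in the values of GAMT, GATM and CKMT2 was not tested. A difference between the groups was not detectable at this depth for either gene.

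SLC6A8, the creatine transporter, was higher in both IMP1-OE libraries. Its counts were 686 and 555 in null and 878 and 1199 in IMP1-OE, or 67.1 and 60.7 CPM against 83.6 and 114 CPM. The groups did not overlap, with IMP1-OE on the higher side, as for 21.3% of all tested genes, but the IMP1-OE libraries were farther apart than the null libraries. The mean was 63.9 ± 4.50 CPM in null and 98.8 ± 21.5 CPM in IMP1-OE (SD, n = 2 each), which is 1.55-fold higher, with a fitted log2 fold change of 0.63 (SE 0.22). Leaving out the first or the second null library gave 0.70 or 0.56, and leaving out IMP1-OE replicate 2 gave 0.40.

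Since the members were chosen with this contrast known, nothing is read from how many of them separate the groups. By length-scaled level in CPM per kilobase, CKB stood first in all 4 libraries, at 323 and 50.3 in null and 311 and 245 in IMP1-OE. The CKMT1 copies came next in null, at 24.2 and 34.9, above SLC6A8 at 17.1 and 15.5. In IMP1-OE this order was the reverse, with SLC6A8 at 21.3 and 29.0 and the CKMT1 copies at 4.10 and 2.29. CKMT2, GATM and GAMT were at or under 1.23 in every library, and their order among themselves was not tested.

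The genes whose scaled log2 profile over the 4 libraries lay nearest to that of the summed CKMT1 copies, by Euclidean distance after centring, were CCN3 (0.34 log2 units), RAB32 (0.41), NPIPB13 (0.56), RARRES1 (0.56) and ERICH5 (0.68), where the median distance of the 12111 other genes was 3.31. RARRES1, a retinoic acid responsive gene, was the only one of the 5 with a comparable level, at 316 and 560 counts in null and at 79 and 54 in IMP1-OE. RAB32, a small GTPase gene, was at 40 and 49 counts in null and at 8 and 3 in IMP1-OE. CCN3, a matricellular protein gene, was at 15 and 21 counts in null and at 2 and 0 in IMP1-OE. NPIPB13 belongs to a family of near-identical copies, so its counts are uncertain, and ERICH5 was at 15 or fewer counts in each library. These genes were picked for this pattern, which carries no test.

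Genes around the creatine system were taken from 6 lists with 93 genes, of which 64 passed the low-count filter. By edgeR's quasi-likelihood test with Benjamini-Hochberg adjustment over all 12112 genes, 0 of the 64 were called at an adjusted p under 0.05, where the background is 0%. At an unadjusted p under 0.05, 6 were higher and 6 lower in IMP1-OE, where 4.34% and 5.84% of all genes were (10.2% in all). DESeq2 called 2 of them, PSAT1 and SLC6A20, both lower, where 1.28% of 12835 genes were called, 0.849% as lower and 0.429% as higher. Limma-voom called 0 of the 64.

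Among the genes that supply creatine's precursors (arginine, glycine and the methyl donor S-adenosylmethionine), 7 of 20 tested were higher and 13 lower, with a median log2 fold change of -0.13 against -0.02 for all tested genes. Leaving out the first null library gave -0.022 for that median, and leaving out the second gave -0.26. PSAT1 and PSPH, enzymes of the serine synthesis that feeds glycine, were at 296 and 192 CPM and at 78.4 and 71.0 CPM in null. In IMP1-OE PSAT1 was at 121 ± 8.78 CPM and PSPH at 45.7 ± 2.86 CPM (SD, n = 2 each), 2.02-fold and 1.64-fold lower with no overlap of the groups. Their edgeR adjusted p was 0.435 for both, and the DESeq2 adjusted p was 0.0280 for PSAT1 and 0.178 for PSPH. AHCY, which clears the S-adenosylhomocysteine left by methyl transfer, had means of 490 ± 45.6 CPM in null and 763 ± 50.2 CPM in IMP1-OE (edgeR adjusted p = 0.435). SHMT2, the mitochondrial enzyme that makes glycine from serine, overlapped between the groups, at 422 ± 29.9 CPM against 391 ± 180 CPM.

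The mitochondrial creatine kinase works beside the carriers and pores that exchange ATP and ADP. Of 15 tested genes of this list, IMP1-OE was above null for 11 and below it for 4. The median log2 fold change was 0.23, and 0.15 to 0.38 with a library left out (0.38 without IMP1-OE replicate 1). The groups did not overlap for 7 of the 15 on the higher side, where 21.3% of all tested genes were, and for 1 on the lower side, where 21.9% were. VDAC2, a pore of the outer membrane, was at 286 ± 9.72 CPM against 187 ± 28.0 CPM in null (1.53-fold, edgeR adjusted p = 0.447). SLC25A6, an ADP/ATP carrier of the inner membrane, was at 195 ± 21.7 CPM against 131 ± 29.8 CPM (edgeR adjusted p = 0.473). SLC25A5, a further carrier of this kind, was at 936 ± 51.3 CPM against 746 ± 136 CPM, and ATP5F1B, the catalytic subunit of ATP synthase, overlapped between the groups. None of these values passed the threshold, and carrier paralogs can share short fragments.

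Of 18 other kinases that pass phosphate between nucleotides, 8 were higher and 10 lower. Their median log2 fold change was -0.07, but 0.015 with library totals as the only scaling. NME1, a nucleoside diphosphate kinase, was at 673 ± 77.1 CPM against 429 ± 107 CPM (edgeR adjusted p = 0.456), and its close paralog NME2, at 704 ± 62.9 CPM against 594 ± 112 CPM, overlapped between the groups. CMPK2, a mitochondrial kinase known as an interferon-stimulated gene, was at 17 and 465 counts in null and at 18 and 3 in IMP1-OE, so that only null replicate 2 was high. The subunits and activators of AMPK, the kinase that senses AMP, had a median log2 fold change of -0.10 over 8 tested genes, and 0.0046 without null replicate 1, and the smallest edgeR adjusted p was 0.529. PRKAB1 was at 31.7 and 20.1 CPM in null and at 15.2 ± 5.26 CPM in IMP1-OE, and PRKAA1, the catalytic subunit, overlapped between the groups.

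Of the 18 relatives of SLC6A8 in the SLC6 family, only 3 passed the low-count filter. SLC6A6, the taurine transporter, had means of 136 ± 9.19 CPM in null and 178 ± 15.4 CPM in IMP1-OE (edgeR adjusted p = 0.512). SLC6A9, a glycine transporter, was at 1.19 ± 0.606 CPM against 3.98 ± 0.0968 CPM (edgeR adjusted p = 0.490). SLC6A20, a transporter of proline and related imino acids, was at 140 and 212 counts in null and at 18 and 28 in IMP1-OE, with an edgeR adjusted p of 0.330 and a DESeq2 adjusted p of 2.7e-05. SLC16A12, which lets creatine leave the cell, was at 6 and 0 counts in null and at 1 and 7 in IMP1-OE.

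**Figure D5:**
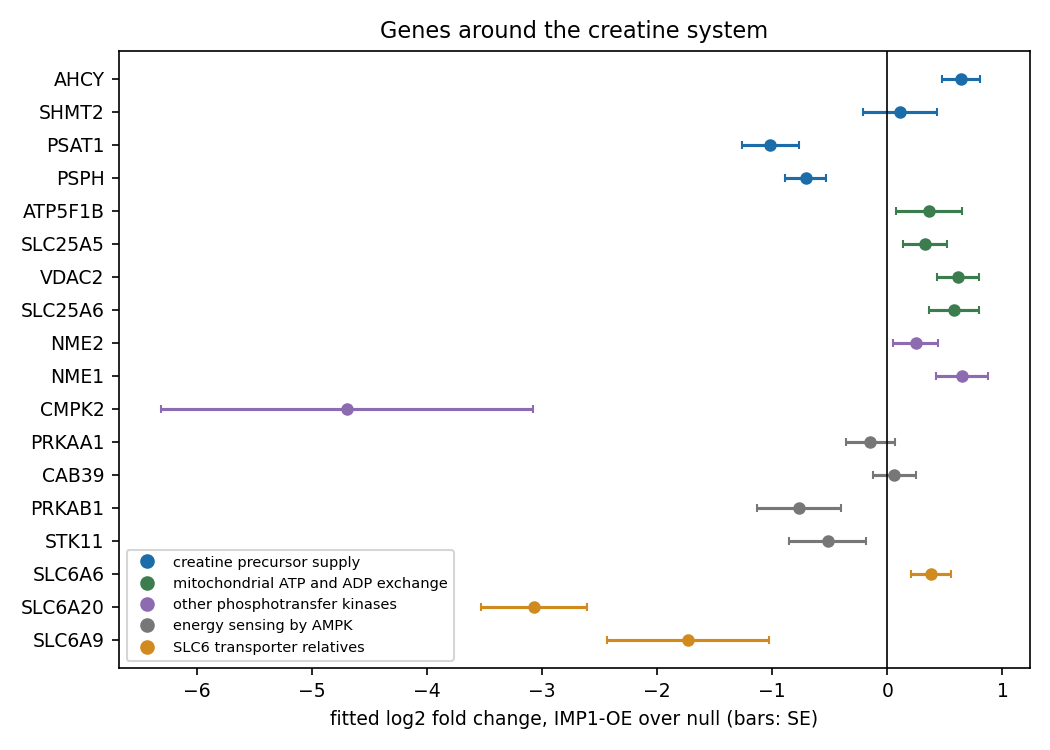
Fitted log2 fold changes (points) with SE (bars) of the named genes of 5 lists around the creatine system, IMP1-OE over null. VDAC2, SLC25A6, NME1 and AHCY lie to the right of 0, PSAT1, PSPH, SLC6A9 and SLC6A20 to the left, and the wide bar belongs to CMPK2.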

How the data were processed

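Per the labels' protocols, RNA in lysates of HT-29 cells was broken by heat. Fragments of 18 to 50 nt were ligated to linkers with molecular identifiers, ribosomal RNA was depleted and cDNA amplified. The labels do not say whether PCR copies were removed. Per the submitters' processing notes, which name no roles, the tools were kallisto 0.46.2, HISAT2 2.1.0, fastp 0.21, cutadapt 3.5 and DESeq (genome build: not given in the sources used here). The authors deposited estimated counts per target, which were whole numbers and were not rounded further. They also deposited TPM, a length-scaled signal, per the file headers. The authors' deposited comparison table holds a mean normalized signal, log2 fold changes, p-values and adjusted p-values. The table holds 2 more sample names, which are not analysed here.

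Groups came from sample titles. CKMT1A and CKMT1B were summed into 1 row before the fit, and the values of the copies apart come from a fit with both rows. The fit used edgeR 4.0.16 under R 4.3.3, TMM scaling, the default filter (12112 genes) and default quasi-likelihood settings, with Benjamini-Hochberg adjustment and a threshold of 0.05. The SE is the size of the log2 fold change over the root of F. With 2 libraries against 2, a two-sided exact permutation test cannot go below 0.333. Alternatives were other filters, other scalings, limma-voom (limma 3.58.1), DESeq2 1.42.0, a block for the replicate number, and leaving out each library on the same 12112 genes. The steps were tested on simulated data. The members and lists were chosen with earlier results of these data known. Named are the 7 members, IGF2BP1, per list the 2 genes of highest mean CPM and the 2 with the smallest unadjusted edgeR p, and the 5 genes nearest in profile to the summed copies. Further genes (CDX2, muscle markers and other cell type markers, CKM, SLC16A12 and genes next to the members) were named after their values were seen. Sequences are from RefSeq, matched by symbol, with 6 of the 7 members in that table.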

Additional observations from a re-analysis of the deposited data

How the results depend on the processing

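The log2 fold change of the summed CKMT1 copies moved by less than its replicate SD (0.50) under all 18 alternatives, from -3.69 to -2.83. This SD comes from the same replicate differences. Leaving out a library could therefore hardly move the value by more, and staying within the SD is no sign of stability. Of the log2 values of the other members and lists, 110 moved by less than the replicate SD of the same member or list and 6 by more. These SDs ran from 0.092 for the SLC6 relatives to 1.35 for CKB, so the 110 include a change of sign of CKB. In all, 5 changed sign: CKB was at -0.22 without null replicate 2, the AMPK median at 0.0046 without null replicate 1, and the median of the other phosphotransfer kinases at 0.015 with library totals only and from -0.036 to 0.088 with a library left out (0.088 without the first null library and 0.021 without the first IMP1-OE library). The cause was not tested.

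The number of genes called over the whole table was 0 in edgeR by default, with 1233 at an unadjusted p under 0.05. It was 22 with no low-count filter, 1 with at least 10 counts in every library, 1 with limma-voom, 1 with the newer edgeR settings and 164 with DESeq2. Leaving out a library gave 0 to 783 in edgeR, the highest without the first null library and 48 without the second. In DESeq2 it gave 1019 and 263 without these and 27 and 33 without the first and the second IMP1-OE library, and the cause was not tested. With a library left out, its group holds a single library, so the spread between replicates comes from the other group alone. The chi-square per degree of freedom between replicates was 55.28 in null and 19.2 in IMP1-OE, so the null libraries differed more. The numbers called without a null library and without an IMP1-OE library thus rest on unlike spreads. Without the first or the second null library, the spread comes from the same IMP1-OE libraries, and what differs is which null library remains. As each of these fits has a group with a single library, the numbers are no sign of more or fewer changed genes. The newer edgeR settings and DESeq2 with a library left out were added after the data were seen. The planned legacy settings are the default of this edgeR version.

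With the replicate number as a block, edgeR called 15 genes, and the summed copies were at -3.22. Same-numbered libraries shared deviations with a correlation of 0.12 across genes, and nothing in the labels ties the numbers together. Depth limits CKMT2, GATM and GAMT, and the split between the copies limits CKMT1A and CKMT1B.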

Other observations

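Genes next to the members were looked up by RefSeq order, a choice made after the data were seen, and are given as values. CATSPER2, a sperm ion channel subunit gene that lies between CKMT1B and CKMT1A, was at 14 and 16 counts in null and at 1 and 4 in IMP1-OE, and STRC, which also lies between the copies, was at 1, 0, 1 and 9 counts in the same order. PPIP5K1, an inositol phosphate kinase gene just before CKMT1B, was at 571 and 613 counts in null and at 422 and 426 in IMP1-OE, a fitted log2 fold change of -0.61 (SE 0.19). On the other side PDIA3, a protein folding enzyme gene, was at 1268 ± 229 CPM in null and 1305 ± 176 CPM in IMP1-OE (SD, n = 2 each), and ELL3 at 26.6 ± 6.51 CPM and 26.0 ± 6.95 CPM. CATSPER2 and STRC have near-identical pseudogene copies, so their counts are uncertain.

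CKB was far lower in null replicate 2 than in the other libraries, and 4 of its 5 neighbours in the table were also lowest there, by less. The share of all genes lowest in that library was not taken, so nothing is read from the 4 of 5. Listed genes that are no neighbours of CKB, such as SHMT2, ATP5F1B and KRT8, were lowest there as well. In the order null 1, null 2, IMP1-OE 1 and IMP1-OE 2, EIF5 was at 98.1, 59.6, 98.0 and 76.1 CPM, and MARK3 at 22.9, 16.4, 26.1 and 19.2 CPM. COA8 was at 3.03, 1.53, 3.05 and 2.95 CPM, and BAG5 at 26.2, 25.0, 31.1 and 32.9 CPM. TRMT61A, at 17.6, 13.9, 12.8 and 18.6 CPM, was lowest in IMP1-OE replicate 1. BCAP31, next to SLC6A8, was at 629 ± 52.6 CPM in null and 572 ± 47.5 CPM in IMP1-OE, where SLC6A8 was higher. The part of the neighbourhood in any of these values was not tested.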
